A study of Mus musculus with 12 samples.

Results

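Hepcidin and the genes that sense, carry, export and store iron were followed in mouse liver: Hamp, Hamp2, Bmp6, Hfe, Tfr2, Tfrc, Trf, Slc40a1, Fth1 and Ftl1. The members were the rows of the deposited count tables whose symbol matched 1 of these names, and all 10 were found among the 50559 genes listed. Liver RNA of C57BL/6N mice was sequenced in 12 libraries, 3 in each of 4 groups, which the labels call biological replicates. The groups were a normal chow diet (NCD), a high-fat diet (HFD) in which 60% of the energy came from fat, and HFD with either compound, HFD+C1 or HFD+C2. The diets lasted 12 weeks. C1 and C2 were injected into the peritoneum at 5 mg/kg per day for the same 12 weeks, and the series title describes them as inhibitors of CYP4A, a family of enzymes that hydroxylate fatty acids. The labels do not say whether NCD and HFD mice received a vehicle, whether tissue was pooled, or the age or sex of the mice.

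Hepcidin is a peptide hormone made mainly by hepatocytes. It binds ferroportin, the only known cellular iron exporter, and causes its breakdown, which holds iron inside macrophages, hepatocytes and gut cells. Its transcription rises with liver iron through bone morphogenetic proteins and SMAD factors, and with inflammation through interleukin 6 and STAT3. Many other iron genes are set after transcription by iron regulatory proteins, which bind RNA hairpins called iron-responsive elements.

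Mice carry a pair of hepcidin genes side by side on chromosome 7 and counted in rows of their own, so the stretches upstream of both are shown. In GENCODE M21 (GRCm38, the build that mm10 names) Hamp spans chr7:30942368-30944032 and Hamp2 spans chr7:30922372-30924681, both on the minus strand. The sequences below are the 250 bases before each start in the RefSeq promoter table for GRCm38.p6, at chr7:30944030-30944279 for Hamp and chr7:30924182-30924431 for Hamp2. The GENCODE start of Hamp lies 3 bases inside the first of these stretches. The Hamp2 stretch ends at the start of the principal Hamp2 transcript, and it lies in intron 1 of a longer Hamp2 transcript, which is why it falls within the span given for the gene. Capitals mark matches to 3 searched motifs: GGCGCC, the core of the BMP-responsive element; TTCNNNGAA, the STAT element; and TGAGTCA, the AP-1 element. GGCGCC and TTCNNNGAA read the same on both strands, TGAGTCA was searched on both, and no match overlapped another.
Hamp: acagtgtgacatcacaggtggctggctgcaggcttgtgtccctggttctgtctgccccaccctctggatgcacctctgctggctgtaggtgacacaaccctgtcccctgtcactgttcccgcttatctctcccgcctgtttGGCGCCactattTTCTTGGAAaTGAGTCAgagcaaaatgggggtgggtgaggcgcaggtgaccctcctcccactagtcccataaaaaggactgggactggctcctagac
Hamp2: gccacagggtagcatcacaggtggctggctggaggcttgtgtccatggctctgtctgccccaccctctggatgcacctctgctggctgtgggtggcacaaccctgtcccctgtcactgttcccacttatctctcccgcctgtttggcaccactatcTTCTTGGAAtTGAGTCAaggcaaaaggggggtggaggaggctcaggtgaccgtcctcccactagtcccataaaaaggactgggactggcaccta

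The upstream stretches were 91.9% identical, with 20 substitutions over 247 aligned bases. GGCGCC lay 109 bases before the Hamp start and had no match in the Hamp2 stretch. One of the substitutions, G145A, fell inside it, with positions counted from 1 at the 5′ end of the Hamp stretch. TTCNNNGAA and TGAGTCA matched in both genes. Among the same 250 bases of 32851 promoters in the table, 9.59% held GGCGCC, 7.02% held TTCNNNGAA and 4.46% held TGAGTCA. The table had an entry for 8 of the 10 members (all but Slc40a1 and Trf). Beside the hepcidin genes, Tfrc had a GGCGCC match and Hfe a TGAGTCA match. A match describes letters in a window and is not evidence of binding.

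The second set of sequences shows where iron regulatory proteins are known to bind the members' transcripts, since those members' RNA levels are described further on. In the GENCODE M21 principal transcripts, hairpins of the iron-responsive form were found in the 5′ UTR of Fth1, Ftl1 and Slc40a1 and, 4 times, in the 3′ UTR of Tfrc. Capitals mark the 6-base loop, which begins with CAGTG.
Fth1: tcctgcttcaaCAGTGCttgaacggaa
Ftl1: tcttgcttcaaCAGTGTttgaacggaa
Slc40a1: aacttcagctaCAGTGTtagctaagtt
Tfrc, site 1: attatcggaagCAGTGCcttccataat
Tfrc, site 2: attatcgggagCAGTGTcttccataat
Tfrc, site 3: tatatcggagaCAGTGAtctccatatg
Tfrc, site 4: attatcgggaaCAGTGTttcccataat

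Such a site was present in 0.103% of the coding transcripts with a 5′ UTR and in 0.355% of those with a 3′ UTR. In the 5′ position a bound protein is known to hold back translation, and in the 3′ position to protect the RNA from decay. Of the 4 transcripts shown, Tfrc alone had its sites in the 3′ UTR. The deposited counts measure RNA amount and not translation.

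The libraries were uneven in depth, with 4281210 reads in genes in NCD replicate 2 and 32124248 in HFD replicate 1. Reads counted in no gene made up 58.2% of NCD replicate 1 and 47.1% of HFD+C2 replicate 1, while the remaining 10 libraries had 27.3% to 40.7%. All 8 hepatocyte markers were detected in every library labelled liver. Their summed level was 25022 CPM in NCD replicate 1 and 70092 to 154613 CPM in the other 11. CPM is the count of a gene scaled to 1000000 reads in genes, with TMM factors over the 12 libraries, so they compare libraries for 1 gene. Values under the diet are therefore also given without NCD replicate 1, and those under C2 that moved most without HFD+C2 replicate 1.

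Scaled to the length of the principal transcript, the members spanned a wide range in HFD liver. Trf, which encodes the plasma iron carrier transferrin, had the highest level at 4622 ± 278 CPM per kb (SD, n = 3), followed by the ferritin subunits Fth1 at 3263 ± 748 and Ftl1 at 2983 ± 824. Hamp stood at 1413 ± 285 CPM per kb and Hamp2 at 208 ± 16.1. The sensor Tfr2 was at 79.5 ± 3.36, the exporter Slc40a1 at 16.9 ± 1.17, Hfe at 12.2 ± 0.654, Tfrc at 3.37 ± 1.12 and Bmp6 at 0.557 ± 0.157. The ferritin subunits differed by less than their spread.

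The first comparison, HFD against NCD, asked what the diet changed. Hamp2 rose and was the only member called: its level in HFD liver was 4.59 times that in NCD liver. By the quasi-likelihood test in edgeR, adjusted by Benjamini-Hochberg over all 13864 genes tested, 1 of the 10 members was called at an adjusted p under 0.05, against 6.03% of all genes (2.59% higher, 3.44% lower). The members' median log2 change was 0.11, with 6 higher and 4 lower, beside a median of -0.02 over all genes tested.

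Hamp2 encodes the second mouse hepcidin, whose role in iron control is not settled. Its level was 14.4, 20.9 and 18.5 CPM in NCD replicates 1 to 3. In HFD replicates 1 to 3 it was 98.2, 90.3 and 84.1 CPM. Every HFD library lay far above every NCD library, and the spread within each group was narrow. The log2 change was 2.20 (SE 0.18, 95% confidence interval 1.79 to 2.61), with an edgeR adjusted p of 0.0021, and Hamp2 ranked 7th of the genes tested by p. Without NCD replicate 1 the log2 change was 2.10, and the call held in all 6 fits that left out 1 library. The 8 hepatocyte markers summed to 25022, 70092 and 73394 CPM in NCD replicates 1 to 3 and to 93936 to 111462 CPM in HFD, so their sum did not overlap between these groups either. None of the 8 was called by edgeR, 4 had an unadjusted p under 0.05 (28.9% of all genes did), and 5 were higher, with a median log2 change of 0.49. The part of the hepatocyte sum in the Hamp2 value was not tested.

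Hamp, the hepcidin known to regulate iron, was not called. Its level was 285, 299 and 678 CPM in NCD replicates 1 to 3, and 699.5, 466 and 572 CPM in HFD replicates 1 to 3. The groups overlapped, because NCD replicate 3 was as high as the HFD libraries. The log2 change was 0.32 (95% confidence interval -0.43 to 1.07, edgeR adjusted p = 0.54), and 0.12 without NCD replicate 1. Adding the reads of both genes into 1 feature gave 0.47 (edgeR adjusted p = 0.35).

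The Hamp2 share of the hepcidin reads was taken after the values of both genes were seen. It restates their difference in another form, so it is given as a description with no test. Hamp2 contributed 4.82%, 6.52% and 2.65% of the reads of both genes in NCD replicates 1 to 3, with exact 95% binomial intervals of 4.19% to 5.53%, 5.36% to 7.85% and 2.42% to 2.90%. In HFD replicates 1 to 3 it contributed 12.3%, 16.2% and 12.8%, with intervals of 11.9% to 12.7%, 15.6% to 16.8% and 12.3% to 13.4%. All HFD shares exceeded all NCD shares, and none of the intervals met across the groups. The intervals cover counting error only.

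**Figure D1:**
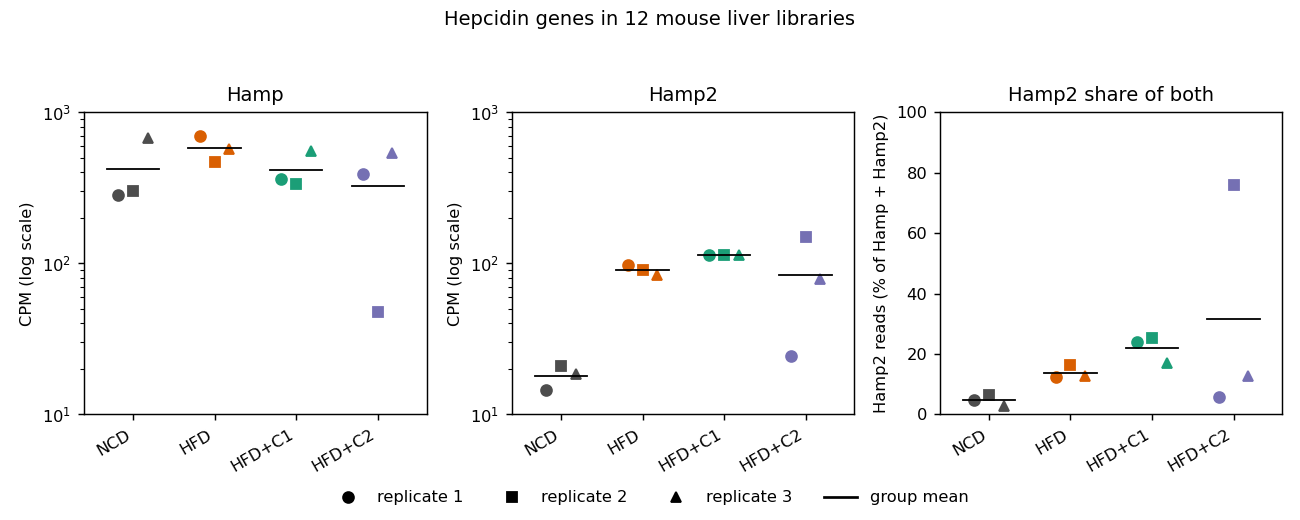
Levels of Hamp and Hamp2 in CPM on a log scale, and the percentage of the reads of both genes that came from Hamp2, for each library, with bars at the group mean. Hamp2 separated NCD (14.4 to 20.9 CPM) from HFD (84.1 to 98.2 CPM), and HFD+C2 replicate 2 stood apart with 47.5 CPM of Hamp and a Hamp2 share of 76.0%.

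The transcripts of Hamp and Hamp2 are 94.6% identical over 410 aligned bases, so read assignment between them matters. Of all 50-base windows of the Hamp transcript, 16.6% also occurred in Hamp2. The share was 3.87% at 75 bases and 0 of 311 windows at 100 bases. Read length and the handling of reads that fit both genes were not given in the sources used here. In GENCODE M21 both genes also lie inside Gm44662, a long noncoding RNA gene on the opposite strand. The annotation used for counting was not given, and without a stated strand setting, reads of the opposite strands cannot be told apart.

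The inducer and sensor genes upstream of hepcidin were not called under the diet. Bmp6, the ligand that couples liver iron to hepcidin and comes mainly from sinusoidal endothelium, was among the scarcest members, at 0.81, 2.81 and 1.53 CPM in NCD and 1.66, 1.69 and 2.65 CPM in HFD. These ranges overlapped fully, and the log2 change was 0.17 (95% confidence interval -0.96 to 1.30), and -0.068 without NCD replicate 1. Bmp6 also shares bases with Txndc5 and with an antisense transcript on the opposite strand. The 9 sinusoidal endothelial markers summed to 65.9 to 114 CPM in NCD and 101 to 130 CPM in HFD. Of these markers 1 was called (6.03% of all genes were) and 8 were higher, with a median log2 change of 0.18. The called one, Lyve1, a hyaluronan receptor of sinusoidal and lymphatic endothelium, rose by 2.20 on the log2 scale (SE 0.44, edgeR adjusted p = 0.036). The 7 stellate cell markers summed to 66.5 to 98.7 CPM in NCD and 105 to 129 CPM in HFD, and 5 were higher and 2 lower, with a median log2 change of 0.38. Of the 7, 2 were called (6.03% of all genes were), the collagen genes Col1a1 at 2.58 (edgeR adjusted p = 0.0093) and Col3a1 at 1.19 (edgeR adjusted p = 0.024). The part of these cells in the Bmp6 value was not tested, and in bulk liver fewer cells of a type and less RNA per cell cannot be told apart.

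Hfe, whose protein links transferrin saturation to the hepcidin signal, was at 11.2, 34.8 and 30.01 CPM in NCD replicates 1 to 3. In HFD replicates 1 to 3 it was at 46.1, 43.5 and 41.5 CPM. The groups did not overlap, which was true of 2 members (Hamp2 and Hfe) and of 37.2% of all genes tested. The log2 change was 0.67 (95% confidence interval -0.09 to 1.42, edgeR adjusted p = 0.22). It dropped to 0.32 without NCD replicate 1, the library with the low hepatocyte sum.

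Tfr2, the hepatocyte receptor that senses iron-loaded transferrin, was at 198, 280 and 274 CPM in NCD and 240, 236 and 222 CPM in HFD. The groups overlapped, since NCD replicate 1 lay below the HFD range and the others above it. The log2 change was -0.25 (95% confidence interval -0.65 to 0.15, edgeR adjusted p = 0.36), and -0.37 without NCD replicate 1.

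Among the transport genes, Tfrc had the largest difference, which was not called. It encodes transferrin receptor 1, which takes up iron-loaded transferrin. Its level was 47.2, 27.9 and 17.4 CPM in NCD and 12.0, 22.6 and 14.8 CPM in HFD. The highest value was that of NCD replicate 1, and NCD replicate 3 lay within the HFD range. The log2 change was -1.09 (95% confidence interval -2.005 to -0.17), with an edgeR p of 0.025 before adjustment and 0.12 after it, and it was -0.53 without NCD replicate 1. Hamp2 and Tfrc were the 2 members with an unadjusted p under 0.05, against 28.9% of all genes.

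Trf was at 10122, 13211 and 12453 CPM in NCD and 12142, 11073 and 12432 CPM in HFD, and the HFD range lay within the NCD range. Its log2 change was -0.16 (95% confidence interval -0.63 to 0.32), and -0.23 without NCD replicate 1. In GENCODE M21 Trf shares 26307 bases with Gm20425, an annotated protein-coding gene on the same strand. The annotation used for counting was not given, so the bearing of this overlap on the Trf reads is not known. Slc40a1, which encodes ferroportin, was at 31.5, 32.3 and 52.4 CPM in NCD and 52.6, 58.7 and 60.0 CPM in HFD. The lowest HFD library only just cleared NCD replicate 3 on this scale, and under the scaling within the comparison the groups overlapped. The log2 change was 0.40 (95% confidence interval -0.08 to 0.89, edgeR adjusted p = 0.24), and 0.28 without NCD replicate 1.

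The storage genes differed by less than their spread. Fth1, the ferritin heavy subunit that oxidises iron, was at 2856, 2230 and 2778 CPM in NCD and 3447, 2230 and 3418 CPM in HFD. Ftl1, the light subunit that helps the iron core to form, was at 3280, 2314 and 2457 CPM in NCD and 3379, 1967 and 3316 CPM in HFD. HFD replicate 2 was low for both subunits, so the groups overlapped. The log2 changes were 0.048 (95% confidence interval -0.52 to 0.61) for Fth1 and -0.063 (95% confidence interval -0.71 to 0.59) for Ftl1. Without NCD replicate 1 both were 0.16. Ferritin has processed pseudogenes with rows of their own (Fth1-ps, Ftl1-ps1, Ftl1-ps2 and Ftl2-ps). Multimapping reads stand in a row apart from all genes, and the share of them that fits these copies is not given. Ftl1 also shares 109 bases with Gm22133, an annotated miRNA gene on the same strand, and 416 bases with Gm10252 on the opposite strand.

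**Figure D2:**
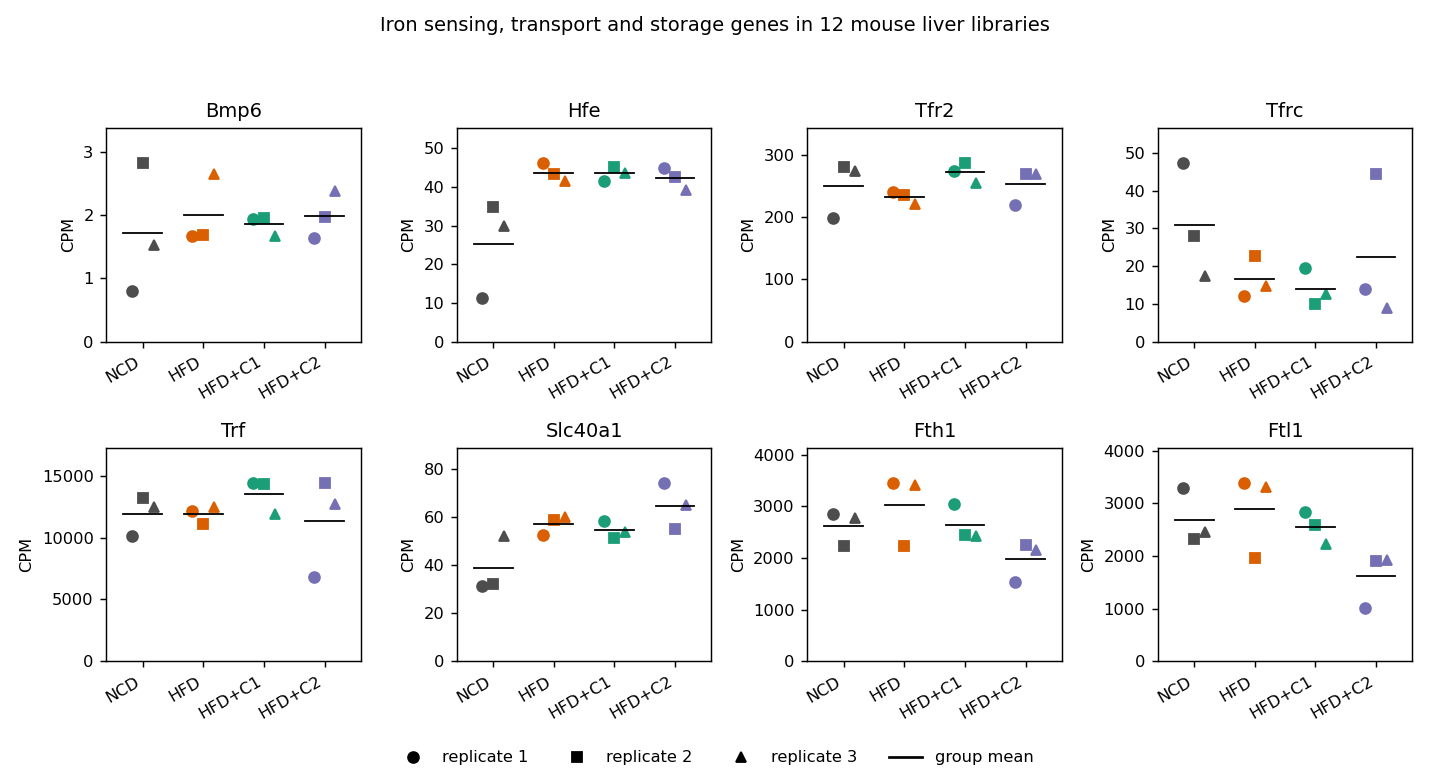
Levels in CPM of the 8 members other than the hepcidins in each of the 12 libraries, each panel starting at 0, with bars at the group mean. Hfe was lowest in NCD (11.2 to 34.8 CPM), Tfrc was highest in NCD replicate 1 (47.2 CPM) and HFD+C2 replicate 2 (44.5 CPM), and Fth1 and Ftl1 were lowest in HFD+C2 replicate 1 (1529 and 1012 CPM).

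In the wider iron pathway, 3 of 83 tested genes from 7 lists were called under the diet (3.61%, against 6.03% of all genes), all in the list of uptake, export and plasma carriers. In that list 2 of 20 rose and 1 fell. Lcn2 encodes lipocalin 2, which binds iron-loaded bacterial siderophores and rises in inflammation. It was at 0.587, 0.804 and 2.39 CPM in NCD and 29.3, 12.4 and 22.5 CPM in HFD, a log2 change of 3.75 (SE 0.50, edgeR adjusted p = 0.011). Steap4, a metalloreductase that reduces ferric iron, rose by 1.58 on the log2 scale (SE 0.39, edgeR adjusted p = 0.04998). Slc11a2, the ferrous iron transporter DMT1, was at 20.6, 24.7 and 21.7 CPM in NCD and 14.2, 15.7 and 11.7 CPM in HFD, a log2 change of -0.84 (SE 0.18, edgeR adjusted p = 0.042). The groups of all 3 genes were separate. Lcn2 was no longer called without HFD replicate 1 or HFD replicate 3 (edgeR adjusted p = 0.083 and 0.067). Steap4 lost its call without any of the HFD libraries or NCD replicate 3, and Slc11a2 without any library other than NCD replicate 1. Over the 16 other settings and left-out libraries, Lcn2 was called in 14, Steap4 in 8 and Slc11a2 in 8. The count of 3 moved with the libraries: it was 12, or 14.5%, without NCD replicate 1 (13.7% of all genes), 2 without NCD replicate 3 (3.55%), 1 of 82 without HFD replicate 2 (0.94%), and 0 without HFD replicate 1 (0.165%) or HFD replicate 3 (0.179%). With no filter on low counts it was 18 of 85, or 21.2% (12.7% of all genes), and in 1 fit of all 12 libraries it was 10, or 12%, against 14.8% of all genes.

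None of the 18 genes of BMP and SMAD signalling was called under the diet by edgeR, with 7 at an unadjusted p under 0.05, which 28.9% of all genes had, and the list's median log2 change was 0.020. The smallest p values belonged to Eng, the BMP co-receptor endoglin, with a log2 change of 1.10 (SE 0.28, edgeR adjusted p = 0.053), and to Atoh8, a transcription factor that follows BMP signalling, with 1.28 (SE 0.37, edgeR adjusted p = 0.071). None of the 8 genes of interleukin 6 and STAT3 signalling was called (2 at an unadjusted p under 0.05), with a median of 0.37. The acute-phase proteins, which follow the same signal, had 1 of 11 called (6.03% of all genes were), 5 at an unadjusted p under 0.05 and 9 higher. The called one, Saa2, had a log2 change of 1.40 (SE 0.33, edgeR adjusted p = 0.046). The summed level of the 11 was 4111 to 8621 CPM in NCD and 8792 to 10919 CPM in HFD. This sum thus differed between the groups in which Hamp2 differed, and its part in the Hamp2 value was not tested.

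No gene was called in the other 4 lists, and their counts at an unadjusted p under 0.05 stand beside the same 28.9% of all genes. Of the 7 genes for iron regulatory proteins and their control, 2 had an unadjusted p under 0.05 and the median was -0.23. Aco1, which encodes iron regulatory protein 1, had a log2 change of -0.61 (SE 0.17, edgeR adjusted p = 0.065). Of 12 tested genes for iron-sulphur clusters, 2 had an unadjusted p under 0.05, led by the scaffold gene Iscu at 0.94 (SE 0.23, edgeR adjusted p = 0.0501). Of the 13 genes for haem synthesis and breakdown, 2 did, with a median of -0.019. Of 5 tested genes for ferritin turnover and iron chaperones, 1 did, with a median of 0.067. DESeq2 called 13 of the 83 list genes (15.7%, against 16.6% of all genes) and limma 1 (1.2%, against 3.17%).

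**Figure D3:**
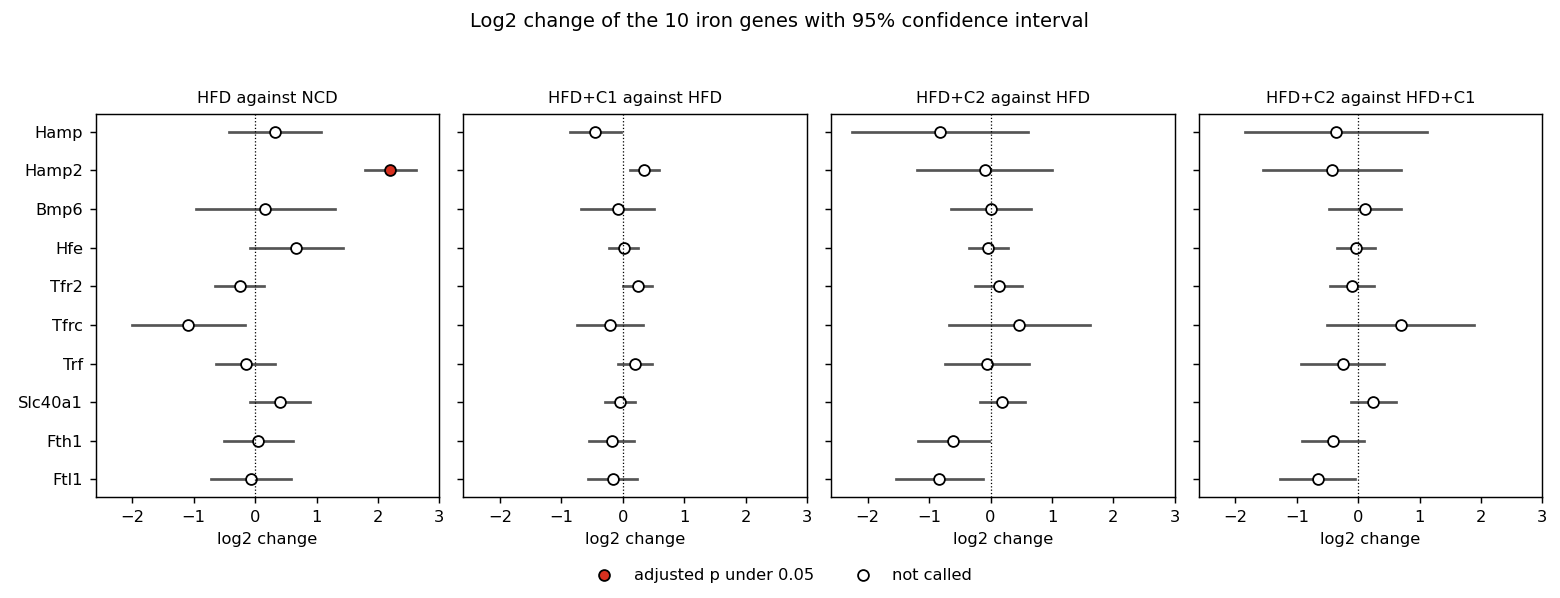
Log2 change of each of the 10 members with its 95% confidence interval from the edgeR fit, in the 4 comparisons; a filled point is called at an adjusted p under 0.05. Hamp2 in HFD against NCD, at 2.20 (1.79 to 2.61), is the only filled point.

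The comparison of HFD+C1 with HFD asked what C1 changed on the high-fat diet; it shares the HFD libraries with the others. By edgeR, 0 of the 10 members were called, against 0.0524% of the 13358 genes tested, and DESeq2 and limma also called none. At an unadjusted p under 0.05 stood 3 members (Hamp2, Hamp and Tfr2), against 7.75% of all genes. The members' median log2 change was -0.064, with 4 higher and 6 lower, beside 0.01 over all genes tested.

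Under C1 the hepcidin genes had estimates of opposite sign. Hamp was at 360.0, 337 and 556 CPM in HFD+C1 replicates 1 to 3, with 2 of the 3 libraries below every HFD library. Its log2 difference from HFD was -0.45 (95% confidence interval -0.87 to -0.03), with an edgeR p of 0.036 before adjustment and 0.62 after it. Hamp2 was at 114 CPM in each of the 3 libraries, above the HFD maximum of 98.2 CPM. Its log2 difference was 0.35 (95% confidence interval 0.11 to 0.59), with an edgeR p of 0.0078 before adjustment and 0.42 after it. The sum of both genes differed by -0.31 (edgeR adjusted p = 0.73).

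The Hamp2 share was 24.0%, 25.3% and 17.0% in HFD+C1 replicates 1 to 3, with exact 95% binomial intervals of 23.3% to 24.8%, 24.4% to 26.2% and 16.4% to 17.7%. All 3 exceeded the highest HFD share of 16.2%, though the interval of HFD+C1 replicate 3 began below the end of that of HFD replicate 2 (16.8%). The mean share was 22.1% ± 4.45 (SD, n = 3) against 13.8% ± 2.13 in HFD.

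Tfr2 was at 275, 286 and 254 CPM with C1, above the HFD range of 222 to 240 CPM. Its log2 difference was 0.24 (95% confidence interval 0.01 to 0.48), with an edgeR p of 0.045 before adjustment and 0.64 after it. Hamp2 and Tfr2 were the 2 members whose groups did not overlap, against 12.4% of all genes. The other 7 members differed by -0.21 (Tfrc) to 0.20 (Trf) on the log2 scale. Of these, 4 changed sign when 1 library was left out: Tfrc ran from -0.53 without HFD+C1 replicate 1 to 0.092 without HFD replicate 2, Bmp6 was 0.17 without HFD replicate 3, Hfe was -0.020 without HFD replicate 3, and when HFD+C1 replicate 2 was left out Hfe was -0.0038 and Slc40a1 0.0063. Hfe, at 41.7, 45.2 and 43.8 CPM, lay within 0.25 of HFD on the log2 scale by its interval (-0.22 to 0.25), and Slc40a1, at 58.4, 51.6 and 54.0 CPM, had an interval of -0.29 to 0.21.

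The wider lists had 0 of 83 genes called by edgeR under C1 (10 at an unadjusted p under 0.05, against 7.75% of all genes). DESeq2 called 1 (1.2%, against 0.576% of all genes) and limma 0. With edgeR, 3 of 85 were called with no filter on low counts (3.53%, against 0.69% of all genes) and 1 of 83 without HFD replicate 2 (1.2%, against 0.767%). Of the BMP and SMAD list 2 of 18 had an unadjusted p under 0.05. Smad7, an inhibitory SMAD that BMP signalling switches on, was at 4.78, 3.85 and 4.34 CPM in HFD and 2.21, 2.56 and 2.79 CPM in HFD+C1. Its log2 difference was -0.76 (SE 0.21, edgeR adjusted p = 0.30). Cd163, the macrophage receptor for haemoglobin bound to haptoglobin, had a difference of 0.82 (SE 0.19, edgeR adjusted p = 0.21), and the haem oxygenase Hmox1 one of 0.44 (SE 0.16, edgeR adjusted p = 0.50). All 10 Kupffer cell and macrophage markers had positive estimates under C1. None was called by edgeR, 9 had an unadjusted p under 0.05, and DESeq2 called 5, against 0.576% of all genes. With edgeR, 6 were called without HFD replicate 2 (0.767% of all genes) and 7 with no filter on low counts (0.69%). They summed to 203 to 266 CPM in HFD and 309 to 422 CPM in HFD+C1. The part of these cells in the values of Cd163, Hmox1 and Slc40a1, which macrophages also express, was not tested. All 5 tested red cell precursor markers had negative estimates under C1, with a median log2 difference of -0.60. None was called by edgeR, 3 had an unadjusted p under 0.05, and they summed to 268 to 405 CPM in HFD and 190 to 309 CPM in HFD+C1. These cells take up iron through transferrin receptor 1 and make haem, and their part in the iron gene values was not tested. The acute-phase list had 10 of 11 positive estimates under C1, with 0 called by edgeR and 5 at an unadjusted p under 0.05. It summed to 8792 to 10919 CPM in HFD and 10853 to 14769 CPM in HFD+C1. Its part in the hepcidin values was not tested.

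The comparison of HFD+C2 with HFD asked the same of C2. By edgeR, 0 of the 10 members were called, against 0.0222% of the 13503 genes tested, and DESeq2 and limma also called none. At an unadjusted p under 0.05 stood 2 members, Ftl1 and Fth1, against 6.89% of all genes. The median over members was -0.049, with 4 higher and 6 lower, beside 0.02 over all genes tested.

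The ferritin genes were at the lower end with C2. Ftl1 was at 1012, 1901 and 1920.5 CPM in HFD+C2 replicates 1 to 3, all below the lowest HFD library at 1967 CPM. Fth1 was at 1529, 2258 and 2152 CPM, and HFD+C2 replicate 2 lay just above the lowest HFD library. The log2 difference of Ftl1 was -0.83 (95% confidence interval -1.54 to -0.13), with an edgeR p of 0.026 before adjustment and 0.69 after it. That of Fth1 was -0.60 (95% confidence interval -1.18 to -0.03), with an edgeR p of 0.042 before adjustment and 0.69 after it. Ftl1 was the 1 member whose groups did not overlap, against 13.6% of all genes. HFD+C2 replicate 1, the library with 47.1% of its reads in no gene, was the lowest for both, and without it the differences were -0.59 and -0.45. The read ratio of Ftl1 to Fth1 was 0.662 in that library and 0.842 to 1.15 in the other 11.

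The hepcidin genes were widely scattered within HFD+C2. Hamp was at 389, 47.5 and 541 CPM in replicates 1 to 3, and the second of these was the lowest of all 12 libraries. Hamp2 was at 24.4, 150.1 and 78.5 CPM in the same order, so that the library lowest for Hamp was highest for Hamp2. The highest and lowest libraries of this group were 11.4-fold apart for Hamp and 6.15-fold apart for Hamp2, against 1.501-fold and 1.17-fold in HFD. The hepatocyte markers summed to 83847, 154613 and 111736 CPM in HFD+C2 replicates 1 to 3, and the second of these was the highest of the 12 libraries. The part of that sum in the hepcidin, Trf and ferritin values under C2 was not tested. The log2 difference of Hamp was -0.83 (95% confidence interval -2.26 to 0.61, edgeR adjusted p = 0.74), and it was -0.31 without HFD+C2 replicate 2. That of Hamp2 was -0.093 (95% confidence interval -1.19 to 1.00), and it became -0.82 without replicate 2 and 0.34 without replicate 1.

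The Hamp2 share showed the same scatter. It was 5.91% (exact 95% binomial interval 5.41% to 6.45%) in HFD+C2 replicate 1, 76.0% (74.7% to 77.2%) in replicate 2 and 12.7% (12.1% to 13.2%) in replicate 3. HFD+C2 replicate 2 was the only library with more Hamp2 than Hamp reads, 3752 against 1187.

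Tfrc was also unlike its group in that library: it was at 14.0, 44.5 and 9.01 CPM in HFD+C2 replicates 1 to 3. The log2 difference from HFD was 0.47 (95% confidence interval -0.68 to 1.62, edgeR adjusted p = 0.81), and it turned to -0.52 without replicate 2. Trf was at 6845, 14378 and 12665 CPM, with replicate 1 below every other library of the series. Its log2 difference was -0.062 (95% confidence interval -0.74 to 0.62), and 0.20 without replicate 1. Slc40a1 was at 74.2, 55.1 and 65.3 CPM, with a difference of 0.19 (95% confidence interval -0.18 to 0.56) and 0.085 without replicate 1. The Kupffer cell and macrophage markers summed to 253 to 511 CPM, and all 10 had positive estimates. None was called by edgeR or DESeq2 with the filter on low counts, and 6 had an unadjusted p under 0.05 (6.89% of all genes did). With no filter, edgeR called 2 of the 10, against 0.531% of all genes. The part of these cells in the Slc40a1 value was not tested. Bmp6 at 1.63 to 2.37 CPM, Hfe at 39.3 to 45.0 CPM and Tfr2 at 220.0 to 269 CPM overlapped HFD.

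The wider lists had 0 of 83 genes called under C2 by edgeR, DESeq2 or limma, with 5 at an unadjusted p under 0.05 by edgeR, against 6.89% of all genes. With no filter on low counts, edgeR called 4 of 86, or 4.65%, against 0.531% of all genes. Hjv encodes hemojuvelin, the BMP co-receptor needed for normal hepcidin expression. It was at 94.8, 64.1 and 103 CPM in HFD and 44.8, 47.04 and 61.8 CPM in HFD+C2, a log2 difference of -0.76 (SE 0.22, edgeR adjusted p = 0.69). Smad7 was at 0.663, 1.52 and 3.45 CPM in HFD+C2, a difference of -1.18 (SE 0.45, edgeR adjusted p = 0.69). The BMP and SMAD list as a whole had 6 positive and 12 negative estimates, with a median of -0.14 beside 0.02 over all genes. The acute-phase proteins summed to 11541 to 15593 CPM in HFD+C2, all above the HFD range of 8792 to 10919 CPM. Of the 11, 0 were called by edgeR, 1 had an unadjusted p under 0.05 and 9 had positive estimates, and their part in the ferritin and hepcidin values was not tested.

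The compounds were given at the same daily dose, so HFD+C2 and HFD+C1 were also set against each other. No member was called by edgeR, DESeq2 or limma, and 1 (Ftl1) had an unadjusted p under 0.05 by edgeR. Over all 13229 genes edgeR called 0 (0%), with 4.6% at an unadjusted p under 0.05, and DESeq2 called 3. The members' median was -0.18, with 3 higher and 7 lower, beside 0.01 over all genes tested.

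Ftl1 and Fth1 were lower in every HFD+C2 library than in every HFD+C1 library, which made 2 members without overlap, against 12% of all genes. Ftl1 was at 2837, 2579 and 2232 CPM with C1 against at most 1920.5 CPM with C2, a log2 difference of -0.66 (95% confidence interval -1.27 to -0.05, edgeR adjusted p = 0.84). Fth1 was at 3037, 2454 and 2428 CPM with C1 against at most 2258 CPM with C2, a log2 difference of -0.41 (95% confidence interval -0.92 to 0.09, edgeR adjusted p = 0.84). Without HFD+C2 replicate 1 these were -0.42 and -0.26.

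For the other members the difference between the compounds had wide intervals around HFD+C2's scatter. Hamp differed by -0.37 (95% confidence interval -1.85 to 1.12), Hamp2 by -0.43 (-1.55 to 0.69) and Tfrc by 0.69 (-0.51 to 1.89). Without HFD+C2 replicate 2, Hamp differed by 0.15 and Tfrc by -0.29, so both changed sign, and Hamp2 differed by -1.15. Without HFD+C2 replicate 1 the Hamp2 difference was 0.00059. The intervals were narrower for Hfe (-0.35 to 0.27), Tfr2 (-0.47 to 0.26) and Slc40a1 (-0.11 to 0.61). Of the wider lists 0 of 83 genes were called by edgeR, DESeq2 or limma, with 7 at an unadjusted p under 0.05 by edgeR, against 4.6% of all genes. With no filter on low counts, edgeR called 2 of 86, or 2.33%, against 0.551% of all genes. Hjv differed by -0.60 (SE 0.18, edgeR adjusted p = 0.84), lower in every HFD+C2 library. Lcn2 differed by -1.29 (SE 0.40, edgeR adjusted p = 0.84). It was at 17.9, 54.5 and 20.8 CPM in HFD+C1 replicates 1 to 3, so replicate 2 stood apart, and at 8.97, 14.7 and 14.2 CPM in HFD+C2.

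Across the 12 libraries, levels were ordered by group only for a few members. Hamp2 was lowest in NCD at 17.9 ± 3.26 CPM (SD, n = 3), then 84.3 ± 63.0 in HFD+C2, 90.9 ± 7.05 in HFD and 114 ± 0.245 in HFD+C1. The libraries of NCD lay below those of HFD+C2, and those of HFD below those of HFD+C1, while HFD+C2 and HFD overlapped. Hfe was lowest in NCD at 25.3 ± 12.4 CPM, and its other groups overlapped between 42.3 ± 2.84 and 43.7 ± 2.34 CPM. Ftl1 was lowest in HFD+C2 at 1611 ± 519 CPM, with no overlap with HFD+C1, the next in order. For Hamp, Bmp6, Tfr2, Tfrc, Trf, Slc40a1 and Fth1, groups next to each other in order overlapped throughout. Tfr2 was the steadiest member, with 1.45-fold between its highest and lowest library, and Hamp the most variable, with 14.7-fold. The place of Hamp rested on HFD+C2 replicate 2, at 47.5 CPM. Without that library Hamp ran from 285 to 699.5 CPM and Hamp2 from 14.4 to 114 CPM.

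Genes whose levels ran most like Hamp and Tfrc were listed by Pearson r of log2(CPM + 0.5) over the 12 libraries, among the 10124 genes whose mean reached 50 counts. The libraries differ in depth and by group, so r is only a description. For Hamp these were Apoa5 (0.86), Mapk15 (0.81), Slc49a4 (0.79), Glul (0.79) and Id1 (0.77). Id1 is a known BMP target and Apoa5 encodes a regulator of plasma triglycerides. HFD+C2 replicate 2 had the lowest level of each of the 5: Apoa5 was at 824 CPM there and 1105 to 1546 CPM elsewhere, and Id1 at 0.92 CPM there and 1.41 to 3.75 CPM elsewhere. Without that library alone, r was 0.45 for Apoa5, 0.13 for Mapk15, 0.55 for Slc49a4, -0.011 for Glul and 0.38 for Id1, so the relation of Mapk15 and Glul with Hamp rested on it. Without that library and HFD replicate 1, those farthest from the Hamp median, r was 0.39 for Apoa5, 0.08 for Mapk15, 0.55 for Slc49a4, 0.05 for Glul and 0.36 for Id1.

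For Tfrc the most alike genes were Creld2 (0.87), Dnajb9 (0.85), Acmsd (0.84), Ncbp1 (0.84) and Flt1 (0.82). Creld2 and Dnajb9 are induced by stress of the endoplasmic reticulum, where the first encodes a resident protein and the second a chaperone. Without HFD+C2 replicate 2 and NCD replicate 1, those farthest from the Tfrc median, r was 0.70, 0.68, 0.73, 0.84 and 0.61 in the same order. Both libraries were high for Tfrc (44.5 and 47.2 CPM) and for Creld2 (131 and 177 CPM). Among the members, r between Hamp and Hamp2 was -0.18, and between Hamp and Tfrc -0.68. Without the 2 libraries farthest from the Hamp median they were 0.26 and -0.53, so the first changed sign. Without the 2 farthest from the Tfrc median, r between Hamp and Tfrc was -0.36.

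**Figure D4:**
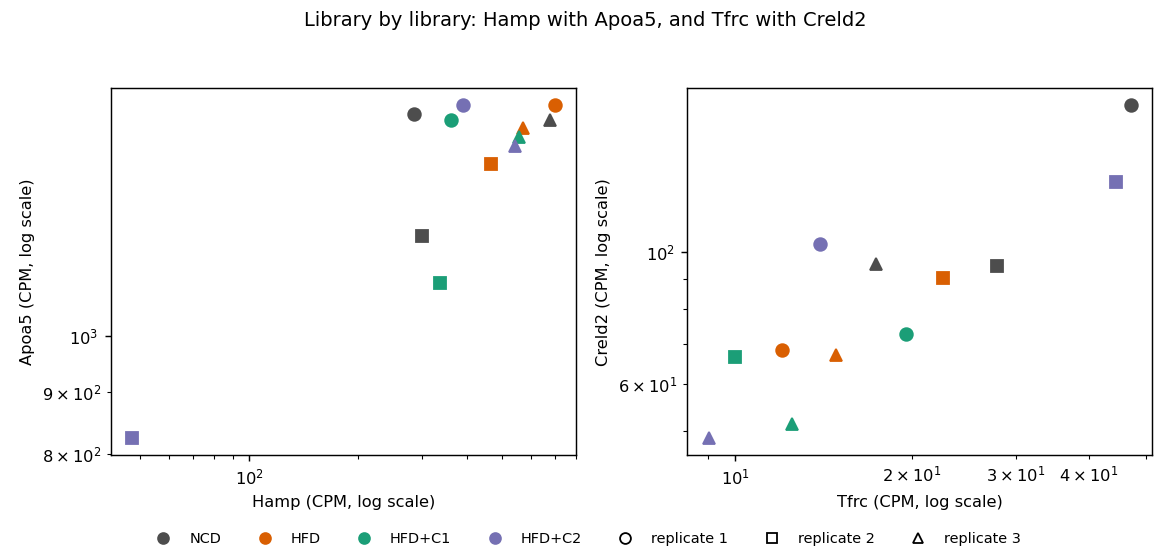
Level of Hamp against Apoa5 and of Tfrc against Creld2, in CPM on log scales, 1 point per library. HFD+C2 replicate 2 is alone at the lower left for Hamp (47.5 CPM) and lies with NCD replicate 1 at the upper right for Tfrc (44.5 and 47.2 CPM).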

How the data were processed

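RNA-seq of 12 liver libraries was analysed, 3 per group. The authors deposited 3 tables of read counts per gene, not normalized: all values were whole numbers with unequal totals, and the 3 HFD columns were identical across tables. The submitters' processing notes name Trimmomatic 0.39, STAR 2.7, DESeq2 and mm10, with no role or order. The counting tool, annotation and strand setting were not given in the sources used here. The 4 rows that name no gene held 27.3% to 58.2% of reads and were left out.

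Counts were tested in edgeR 4.0.16 under R 4.3.3 by its quasi-likelihood method, with TMM scaling, no covariates, only genes averaging 10 or more counts across a comparison's 6 libraries, and Benjamini-Hochberg adjustment over all genes tested. A call is an adjusted p under 0.05. Confidence intervals are the log2 change plus or minus its SE times the quantile at the moderated degrees of freedom; the SE is the log2 change over the root of F. P-values measure the spread between these libraries. The floor of 3 counts was 0.0934 to 0.701 CPM, depending on the library's depth. The edgeR steps were tested on simulated data. Those of limma 3.58.1 and DESeq2 1.42.0 were not.

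Every member is named. From other lists, called genes and at most the 2 genes with the smallest p were eligible, and the 5 genes most like Hamp and Tfrc. The markers came from lists by cell type. Members and lists were chosen with earlier results of these data known. Alternatives were DESeq2, limma with a pseudocount of 0.5, 3 scalings, 2 filters, a fit of all 12 libraries, the replicate number as a block, summing Hamp and Hamp2, and leaving out each library. For likeness, leaving out 1 library at a time was added after seeing the data. Gene places and lengths came from GENCODE M21 and promoters from RefSeq GRCm38.p6, matched by symbol. Iron-responsive elements were searched as a C, 5 bases, the loop CAGTG followed by A, C or T, and 5 bases pairing with the first 5 (G-U allowed).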

Additional observations from a re-analysis of the deposited data

Results flagged for a closer look

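HFD+C2 replicate 1 had 47.1% of its reads in no gene, where the HFD libraries had 31.9% to 32.9%. Its ambiguous reads were 9.04% of the total, where the HFD libraries had 3.91% to 4.96%. NCD replicate 1 had 58.2% in no gene and 7.88% ambiguous. The values of HFD+C2 replicate 1 were singled out because they are signals in rows that name no gene, above the level in the HFD control libraries. This library was also the lowest of the 12 for Fth1, Ftl1 and Trf. The part of these reads in the members' values was not tested.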

How the results depend on the processing

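Hamp2 under the diet was called in all 6 fits without 1 library (log2 change 2.10 to 2.31) and in all 9 other settings that kept it as its own gene (1.98 to 2.37). With no filter on low counts, Hfe (0.81) and Tfrc (-0.86) were also called under the diet; that setting moved the median of all genes to -0.62, library totals alone moved it to -0.24 and upper-quartile scaling to -0.11. No other member was called in any comparison under any alternative. With all libraries, the sign changed for Fth1 under the diet with upper-quartile scaling (-0.043), library totals (-0.19) and a mean of at least 50 counts (-0.021), for Bmp6 under the diet with library totals (-0.043), for Trf (0.017) and Ftl1 (0.14) under the diet with no filter, and for Bmp6 under C2 with library totals (-0.022). Leaving out 1 library changed the sign within these log2 ranges. Under the diet they were -0.11 to 0.61 for Bmp6, -0.17 to 0.16 for Ftl1 and -0.054 to 0.24 for Fth1. Under C1 they were -0.53 to 0.092 for Tfrc, -0.21 to 0.17 for Bmp6, -0.020 to 0.050 for Hfe and -0.10 to 0.0063 for Slc40a1. Under C2 they were -0.13 to 0.27 for Bmp6, -0.081 to 0.024 for Hfe, -0.82 to 0.34 for Hamp2, -0.28 to 0.20 for Trf and -0.52 to 0.85 for Tfrc. For C2 against C1 they were -1.15 to 0.00059 for Hamp2, -0.93 to 0.15 for Hamp, -0.29 to 1.07 for Tfrc, -0.031 to 0.22 for Bmp6 and -0.090 to 0.018 for Hfe. The causes were not tested.

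The count of all genes called under the diet, 836, was 2298 with DESeq2, 439 with limma, 4493 with no filter, 524 with a mean of at least 50 counts and 1996 with all 12 libraries in 1 fit. Without 1 library it ran from 23 to 1838: 1838, 1276 and 487 without NCD replicates 1 to 3, and 23, 131 and 25 without HFD replicates 1 to 3. Under C1 the count of 7 was 77 with DESeq2, 206 with no filter, 0 in the fit of 12 libraries, and 2 to 102 without 1 library. Under C2 the count of 3 was 35, 152 and 0 in the same settings and 0 to 27 without 1 library. For C2 against C1 the count of 0 was 3 with DESeq2, 162 with no filter, and 0 to 1 without 1 library. With the replicate number as a block (replicate block) 483 genes were called under the diet, 36 under C1, 3 under C2 and 0 for C2 against C1. Same-numbered libraries correlated at -0.14 to 0.21 in their deviations, so the numbers were not taken to pair samples; the block changed no member's call, but it called 4 of the 10 Kupffer cell and macrophage markers under C1.

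Scaled by library totals alone, mean levels left the spread of the replicates for Hamp2 in NCD (21.5 CPM) and HFD+C1 (110.0), Hfe in HFD (40.9) and HFD+C2 (38.7), Tfr2 in NCD (300.5) and HFD (218), Trf in NCD (14365) and HFD (11126), and Fth1 (3203) and Ftl1 (3313) in NCD. Depth limits Bmp6 most, with 11 reads in NCD replicate 1 and 14 in NCD replicate 2, the shallowest library.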
